A study of Mus musculus with 35 samples.

Results

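The genes described here encode 9 subunits of Polycomb repressive complex 1 (PRC1), chosen by name among the 19138 genes counted in each library of mouse long-term haematopoietic stem cells (LT-HSCs). They are the chromobox genes Cbx2, Cbx6, Cbx7 and Cbx8, the PCGF genes Bmi1 and Pcgf5, the RING genes Rnf2 and Ring1, and the polyhomeotic gene Phc2. All 9 were found by symbol and all 9 passed the filter on low counts, which kept 14945 genes. RNA-seq of 1000 sorted cells per library gave 35 libraries in 6 genotype groups. All mice carried SclCre, a Cre recombinase driven by regulatory sequence of Scl, a gene active in blood stem and progenitor cells. With JAK2V617F, the activating kinase mutation of myeloproliferative neoplasms, there were 6 libraries of Ezh2-/- cells, 8 of Ezh2+/- cells and 6 of Ezh2+/+ cells. Without JAK2V617F there were 4 libraries of Ezh2-/- cells, 7 of Ezh2+/- cells and 4 of Ezh2+/+ cells, the last being the SclCre control. Ezh2 status refers to cells in which Cre acts, and the age of the mice, the timing of Cre activity and the animal behind each library are not given in the labels.

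PRC1 is a family of chromatin complexes built around an E3 ubiquitin ligase, RNF2 or RING1, paired with 1 PCGF protein, and it places ubiquitin on histone H2A at repressed genes. In canonical PRC1 the PCGF subunit is BMI1 or its close relative PCGF2, a CBX chromodomain protein reads the methyl mark that PRC2, with its catalytic subunit EZH2, sets on histone H3, and a PHC protein joins complexes into larger assemblies. In mouse blood stem cells Bmi1 is required for self-renewal, and Cbx7 is known to favour self-renewal while Cbx2 and Cbx8 are known for the opposite role. PCGF5 belongs to a variant PRC1 that carries no CBX protein.

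The promoter sequences of the 3 members whose RNA differed most clearly between genotypes are given first, because later results refer to them. The RefSeq windows of 300 bases, from 250 before to 50 after a start site, are of build GRCm38.p6, which is not the build of the counts, and 8 of the 9 members had a window. The capitals mark the motif CACGTG, the E-box letters bound by MYC and related factors. Cbx6 lies on chromosome 15 at chr15:79834284-79834583 on the minus strand, Cbx7 at chr15:79932597-79932896 on the minus strand, and Bmi1 at chr2:18676768-18677067 on the plus strand.
Cbx6: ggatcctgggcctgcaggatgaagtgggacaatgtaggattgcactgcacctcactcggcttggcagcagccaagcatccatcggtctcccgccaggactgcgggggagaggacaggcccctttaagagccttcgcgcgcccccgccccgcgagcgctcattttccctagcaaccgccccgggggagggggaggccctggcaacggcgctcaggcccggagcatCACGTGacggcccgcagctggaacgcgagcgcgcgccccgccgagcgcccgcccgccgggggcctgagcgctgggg
Cbx7: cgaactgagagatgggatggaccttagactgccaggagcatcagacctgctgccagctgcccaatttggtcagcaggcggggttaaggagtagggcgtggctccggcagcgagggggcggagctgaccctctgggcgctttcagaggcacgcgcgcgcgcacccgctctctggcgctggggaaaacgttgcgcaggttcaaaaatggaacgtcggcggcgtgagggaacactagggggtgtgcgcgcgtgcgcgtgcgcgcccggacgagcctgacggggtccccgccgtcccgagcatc
Bmi1: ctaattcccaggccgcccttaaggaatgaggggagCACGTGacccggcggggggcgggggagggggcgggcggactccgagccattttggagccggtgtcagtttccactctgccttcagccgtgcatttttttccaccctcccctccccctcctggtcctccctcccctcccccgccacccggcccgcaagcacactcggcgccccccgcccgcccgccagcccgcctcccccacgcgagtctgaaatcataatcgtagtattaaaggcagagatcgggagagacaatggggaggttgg

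All 3 windows were rich in the dinucleotide CG, with 31 in Cbx6, 33 in Cbx7 and 23 in Bmi1, against a median of 7 over 32851 windows of all genes. The letters CACGTG, searched on both strands and read the same on either, stood at position -26 in Cbx6 and -215 in Bmi1, counted from the start site, and were not found in the Cbx7 window. They were also present in windows of Cbx8 at -98 and Phc2 at -57, so 4 of 8 members and 4 of their 12 windows had them. The motif was in 7.15% of all windows and in 11.6% of the 8701 windows with at least 20 CG. The STAT letters TTCNNNGAA were in none of the 12 member windows, against 8.3% of all windows and 4.61% of those with at least 20 CG. The E2F letters TTGGCGC (2.45% of all windows, 5.53% of those with at least 20 CG) and TTCCCGC (4.6% and 11.4%) and the ETS letters CCGGAAG (8.86% and 19.6%) were each in 1 of 12 member windows. The GC box letters GGGCGG were in 10 of 12 member windows, in 35.7% of all windows and in 80.9% of windows with at least 20 CG. No CACGTG match overlapped a match of another motif. These matches describe the letters only.

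Library totals were 13.55 M to 48.56 M counts, and the median library had 24.91 M. Levels are given as CPM, a gene's counts scaled to the same library total after TMM normalization. Libraries came in 2 experimental batches named in the labels, 14 in batch 1 and 21 in batch 2, and from 20 females and 15 males, and all 4 controls were female. A part of Ezh2 was counted on its own and checks the Ezh2-/- labels. It made up 0% of Ezh2 counts in JAK2V617F Ezh2-/- libraries and at most 0.4785% in Ezh2-/- libraries, against 6.02% to 8.718% in controls. It ran from 4.077% to 8.495% in JAK2V617F Ezh2+/- libraries and from 0% to 9.497% in Ezh2+/- libraries, so it does not separate Ezh2+/- from Ezh2+/+. Ezh2+/- batch 2 replicates 1 and 3 were low, at 1.738% and 1.774%. The library labelled Ezh2+/- batch 1 replicate 3 had 0 counts in that part, and the one labelled Ezh2+/- batch 1 replicate 1, labelled male, had 390.9 CPM of Xist against 590.2 to 1351 CPM in females. Comparisons of called members that include these 2 batch 1 libraries are also given without them, with batch 2 replicates 1 and 3 kept. All 10 LT-HSC markers (such as Procr, Hlf and Fgd5) had counts in every library, as the labelled cell type would give. Summed markers of granulocytes and monocytes ran from 414.3 to 10690 CPM over libraries, of megakaryocytes from 319.8 to 2268, of erythroid cells from 21.18 to 177 and of B cells from 42.88 to 109.5 CPM. T cell markers reached at most 2.637 CPM, and Cd3e was at 0 in 32 libraries.

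Per kilobase of the deposited gene length, Rnf2 and Cbx6 had the highest levels of the 9 members, with medians over all libraries of 47.2 and 35.2 CPM per kb. Pcgf5 followed at 24 CPM per kb, Cbx7 at 11.2 and Bmi1 at 8.29. Ring1 at 6.89, Phc2 at 6.35, Cbx8 at 4.51 and Cbx2 at 2.63 CPM per kb were lowest. Of the catalytic pair Rnf2 lay above Ring1, and of the 4 chromobox members Cbx6 had the highest level per length.

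**Figure D1:**
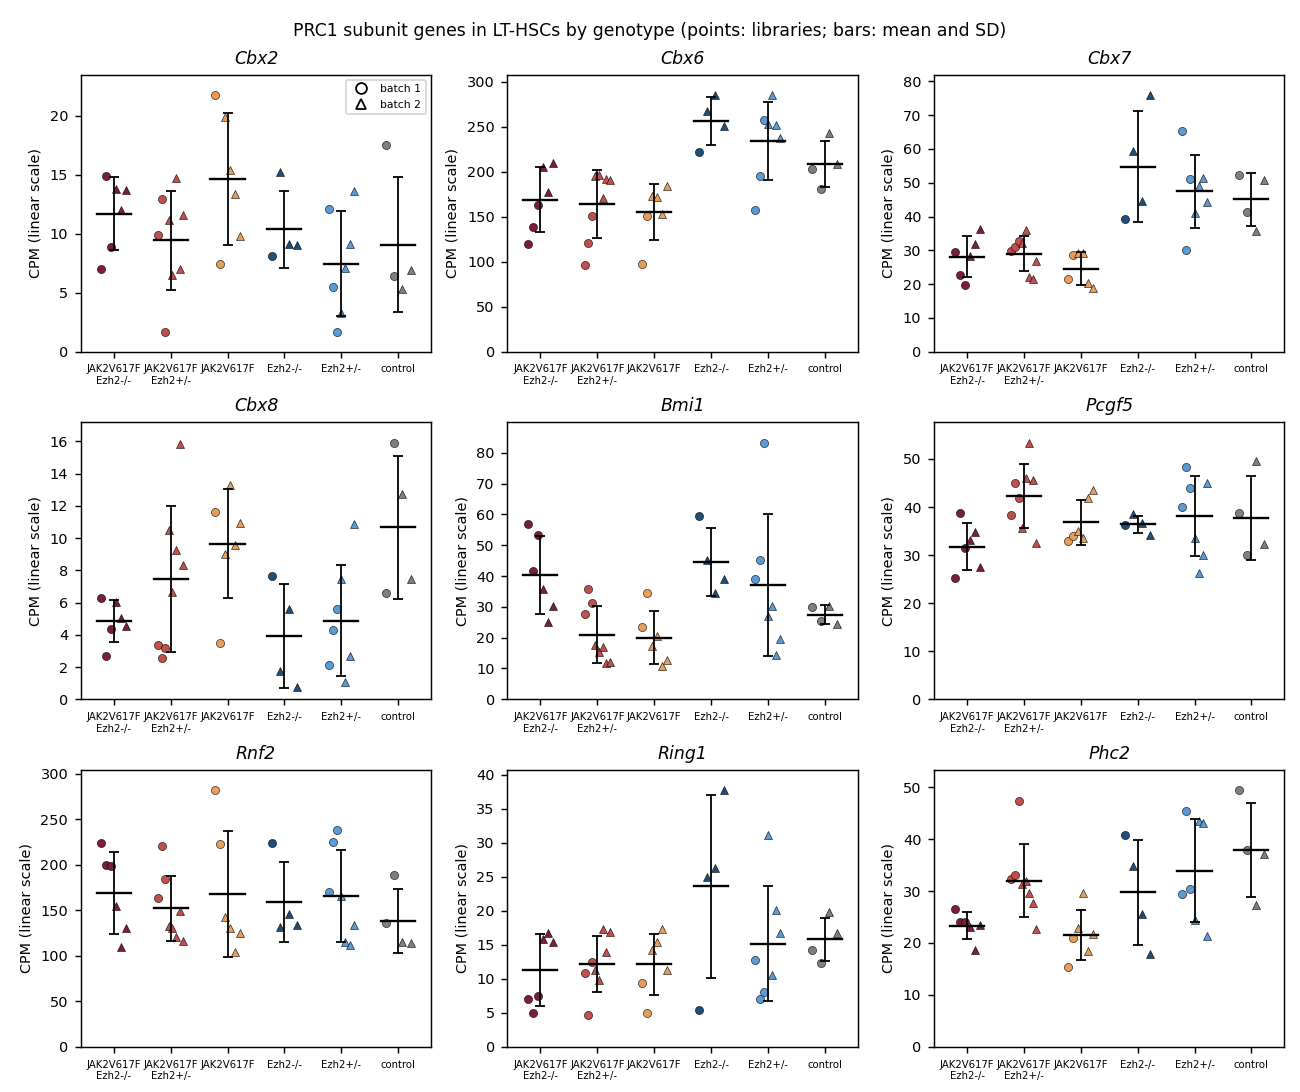
RNA level of each PRC1 subunit gene in CPM (linear scale from 0) by genotype group. Each point is a library (circles batch 1, triangles batch 2), and bars give the mean and SD. Cbx6 and Cbx7 sit lower in the 3 JAK2V617F groups, Bmi1 is highest on average in both Ezh2-/- groups, and Rnf2 has a higher mean in batch 1 than in batch 2 in every group.

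JAK2V617F was compared with no JAK2V617F in cells of each Ezh2 status, and the mean of the 3 log2 changes is called the mean JAK2V617F effect. In that mean, 5 of the 9 members fell and none rose: Cbx6, Cbx7, Bmi1, Ring1 and Phc2. The share of all tested genes that fell was 12.4%, and 25.3% were called in either direction at an adjusted p under 0.05 (edgeR quasi-likelihood test, two-sided, Benjamini-Hochberg over all genes). The median log2 change of the 9 members was -0.41, beside -0.01 over all genes tested and -0.01 over 30 other PRC1 genes. The 9 members were chosen with earlier results of these data known, so this median is a description and not separate evidence. CPM are shares of a library's RNA, so fewer cells of a type and less RNA per cell cannot be told apart. Markers of cell state moved in the same comparison. The 12 dividing-cell markers, all of which rose, summed to 1037 to 2169 CPM in JAK2V617F Ezh2-/-, 776.5 to 1486 CPM in JAK2V617F Ezh2+/- and 996.9 to 1942 CPM in JAK2V617F libraries, against 403.2 to 542.9 CPM in Ezh2-/-, 245.2 to 688.5 CPM in Ezh2+/- and 394.3 to 627.0 CPM in control libraries. Of the 10 LT-HSC markers 8 fell, and their sums were 2885 to 3684, 2662 to 4246 and 2425 to 3842 CPM in those 3 JAK2V617F groups, against 4794 to 5674 CPM in Ezh2-/-, 4068 to 5929 CPM in Ezh2+/- and 4019 to 4817 CPM in control libraries. Of the 3 multipotent progenitor markers, Cd34 rose by 0.80 on the log2 scale (SE 0.11). The part of these shifts in the subunit results was not tested.

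In Ezh2+/+ cells 2 members fell, Cbx6 and Cbx7, and none rose, where 4.22% of all genes were called, 2.4% higher and 1.83% lower. The same pair fell and none rose in Ezh2-/- cells, where 4.84% of genes were called, 2.86% higher and 1.97% lower. In Ezh2+/- cells Cbx6, Cbx7 and Bmi1 fell and none rose, where 9.05% of genes were called, 4.88% higher and 4.18% lower. DESeq2 called 2, 2 and 3 members in these comparisons, beside 1003, 1117 and 1710 of 14769 genes. Between JAK2V617F Ezh2-/- cells and the SclCre control, 1 member passed, Cbx7, with a log2 change of -0.67 (SE 0.21, adjusted p 0.0499), where 5.48% of genes were called, 3.14% higher and 2.34% lower. That call was lost in 23 of 35 fits that each left out 1 library, with an adjusted p of up to 0.185. Phc2 lay below every control in 6 of 6 JAK2V617F Ezh2-/- libraries, with a log2 change of -0.69 (SE 0.22, adjusted p 0.0629). Cbx8 did so too, with a log2 change of -1.20 (SE 0.55, adjusted p 0.218). The share of all genes with such a gap was not computed, here or for the groups of Cbx7 and Cbx6 below that did not overlap.

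Cbx7, whose product reads the PRC2 mark, had the largest mean JAK2V617F effect of the 9 genes on the log2 scale. JAK2V617F Ezh2-/- libraries had 19.75 CPM at the lowest, 28.95 at the median and 36.4 at the highest, against 39.2, 59.3, 44.6 and 75.9 CPM in the 4 Ezh2-/- libraries. These groups did not overlap, and the log2 change was -0.99 (SE 0.22, adjusted p 0.00498). JAK2V617F libraries had a lowest, median and highest level of 18.9, 25.1 and 29.3 CPM, against 52.2, 41.4, 35.7 and 50.9 CPM in the 4 controls. Here too all 6 JAK2V617F libraries lay below every control, with a log2 change of -0.84 (SE 0.22, adjusted p 0.0259). In Ezh2+/- cells the groups overlapped. JAK2V617F Ezh2+/- libraries had 21.5, 30.4 and 36.0 CPM at the lowest, median and highest, against 30.2, 49.0 and 65.3 CPM in Ezh2+/- libraries, and 4 of 8 lay below every Ezh2+/- library, a log2 change of -0.73 (SE 0.17, adjusted p 0.00454). The mean JAK2V617F effect on Cbx7 was -0.85 (SE 0.11, adjusted p 5.08e-07), which is 0.554-fold.

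Batch and single libraries bear on the separate Cbx7 comparisons more than on their mean. Within batches the mean effect was -0.77 in batch 1 (adjusted p 0.116) and -0.80 in batch 2 (adjusted p 0.00042), and in females alone it was -0.86 (adjusted p 0.0023). Without the 2 libraries that went against a label it was -0.79 (adjusted p 2.05e-06), and the Ezh2+/- comparison was -0.56 with an adjusted p of 0.0542. The Ezh2+/+ comparison of Cbx7 lost its call without control batch 1 replicate 1 (adjusted p 0.112), JAK2V617F batch 1 replicate 1 (0.0891) or control batch 2 replicate 4 (0.075). In females alone, the only sex among controls, that comparison gave -0.82 (adjusted p 0.133). The Ezh2-/- comparison of Cbx7 kept its call in each fit that left out 1 library (adjusted p of up to 0.0411). That call was lost in the compared groups only (-0.86, adjusted p 0.112) and in batch 2 (-0.93, adjusted p 0.0531). In batch 1 and in females, with 1 Ezh2-/- library each, the change was -0.76 and -1.10. The annotation used for names places Apobec3 over part of Cbx7, and the use of strand in counting is not given, so their reads may not be fully separate. Apobec3 had 332 to 553.8 CPM over the libraries, far above the 18.9 to 75.9 CPM of Cbx7, and its mean JAK2V617F effect was -0.01 (SE 0.05).

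Cbx6, a chromobox gene of the same family, fell in all 3 comparisons. In Ezh2-/- cells, JAK2V617F libraries had a lowest, median and highest level of 119, 170.1 and 210.1 CPM, against 222, 267.5, 285 and 250.7 CPM in the 4 Ezh2-/- libraries. No values overlapped, and the log2 change was -0.54 (SE 0.14, adjusted p 0.0143). In Ezh2+/- cells, levels were 96.8, 181 and 196 CPM with JAK2V617F, against 158, 252 and 285 CPM without it. Of the 8 JAK2V617F Ezh2+/- libraries, 3 lay below every Ezh2+/- library, and the log2 change was -0.56 (SE 0.10, adjusted p 0.000392). In Ezh2+/+ cells, JAK2V617F libraries had 97.1, 163 and 184 CPM, against 203, 180.3, 243 and 208.5 CPM in controls. Of the 6 JAK2V617F libraries 5 lay below all controls, with a log2 change of -0.48 (SE 0.14, adjusted p 0.0377). The mean JAK2V617F effect was -0.53 (SE 0.07, adjusted p 4.15e-07), or 0.694-fold.

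The mean effect on Cbx6 was -0.79 in batch 1 (adjusted p 0.0268), -0.42 in batch 2 (adjusted p 9.73e-05), -0.57 in females (adjusted p 0.00518) and -0.51 without the 2 libraries that went against a label (adjusted p 4.07e-07). The Ezh2+/+ comparison of Cbx6 was lost without control batch 1 replicate 1 (adjusted p 0.15), control batch 1 replicate 2 (0.0761), JAK2V617F batch 1 replicate 1 (0.171), control batch 2 replicate 2 (0.079) or JAK2V617F batch 2 replicate 3 (0.0578), and in females alone it was -0.56 (adjusted p 0.169). The Ezh2+/- comparison of Cbx6 was -0.51 without the 2 libraries that went against a label (adjusted p 0.00203). The Ezh2-/- comparison was lost without Ezh2-/- batch 1 replicate 1, the only Ezh2-/- library of that batch (adjusted p 0.0504). Cbx6 overlaps Npcd in that annotation, and reads of the pair may not be fully separate. Npcd had at most 677 counts in a library, below the lowest Cbx6 count of 2055, and its mean JAK2V617F effect was -0.50 (SE 0.16, adjusted p 0.0188).

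**Figure D2:**
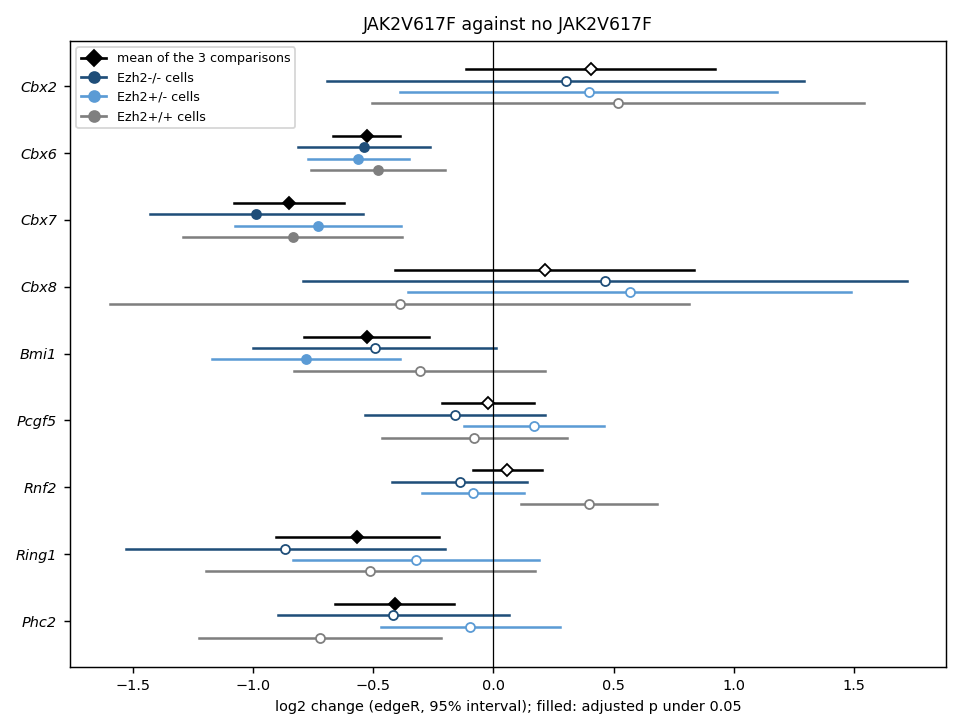
Log2 change with JAK2V617F against without it for each PRC1 subunit gene, in Ezh2-/-, Ezh2+/- and Ezh2+/+ cells and as their mean (diamonds), with 95% intervals from the edgeR fit. Filled symbols have an adjusted p under 0.05. All 4 values of Cbx6 and of Cbx7 are filled and below 0, while the intervals of Cbx2, Cbx8 and Pcgf5 span 0 in each comparison.

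Cbx2 and Cbx8, the other chromobox members, were low and variable, and no comparison passed the test for either (edgeR). Cbx2 had a lowest, median and highest level of 7.48, 14.4 and 21.8 CPM in JAK2V617F libraries, against 17.6, 6.44, 5.30 and 6.95 CPM in controls. The mean JAK2V617F effect on Cbx2 was 0.41, with a 95% interval of -0.11 to 0.92. Cbx8 had 3.49, 10.2 and 13.3 CPM in JAK2V617F libraries, against 6.57, 15.9, 12.7 and 7.44 CPM in controls. Its mean effect was 0.21, with an interval of -0.41 to 0.84. Both intervals span 0.

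Bmi1, the PCGF subunit required for self-renewal in mouse blood stem cells, fell with JAK2V617F in the mean of the 3 comparisons by 0.53 on the log2 scale (SE 0.13, adjusted p 0.00216). In Ezh2+/- cells, Bmi1 had a lowest, median and highest level of 11.9, 17.2 and 35.7 CPM with JAK2V617F, against 14.3, 30.1 and 83.3 CPM without it. Values overlapped, with 2 of 8 below all Ezh2+/- libraries, and the log2 change was -0.78 (SE 0.19, adjusted p 0.00742). The highest Ezh2+/- value, 83.3 CPM, was batch 1 replicate 3, the library with no counts in the separately counted part of Ezh2, and without it the adjusted p was 0.0571. Without both libraries that went against a label, the change was -0.58 (adjusted p 0.0781). In Ezh2+/+ cells, JAK2V617F libraries had 10.7, 18.9 and 34.5 CPM, against 29.8, 25.5, 30.35 and 24.35 CPM in controls. Of the 6 JAK2V617F libraries 5 lay below all controls and 1 above all, and the log2 change was -0.31 (SE 0.26, adjusted p 0.593), and in Ezh2-/- cells it was -0.49 (SE 0.25, adjusted p 0.285). The mean effect was -0.46 in batch 1 (adjusted p 0.33), -0.58 in batch 2 (adjusted p 0.0152), -0.59 in females (adjusted p 0.104) and -0.46 without the 2 libraries (adjusted p 0.00617). Levels of Bmi1 differed by batch: in JAK2V617F Ezh2+/- libraries it averaged 31.5 CPM in batch 1 and 14.7 CPM in batch 2.

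Pcgf5, of variant PRC1, had the smallest ratio of highest to lowest library of the 9 members, lying between 25.2 and 53.4 CPM in all 35 libraries. Its mean JAK2V617F effect was -0.02, with a 95% interval of -0.22 to 0.17.

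Of the RING genes, the catalytic subunits, Ring1 fell and Rnf2 did not pass the test. Ring1 had a lowest, median and highest level of 5.02, 11.5 and 16.7 CPM in JAK2V617F Ezh2-/- libraries, against 5.395, 24.97, 26.3 and 37.8 CPM in Ezh2-/- libraries. The lowest Ezh2-/- value was again the lone batch 1 library, so the groups overlapped, and the log2 change was -0.87 (SE 0.33, adjusted p 0.127, and 0.0417 without that library). The mean JAK2V617F effect on Ring1 was -0.57 (SE 0.17, adjusted p 0.0108). It was -0.45 in batch 1 (adjusted p 0.764), -0.55 in batch 2 (adjusted p 0.0489), -0.72 in females (adjusted p 0.0939) and -0.54 without the 2 libraries that went against a label (adjusted p 0.0193). Ring1 was higher in batch 2 than in batch 1 in every group by mean, for example 29.7 CPM in the 3 batch 2 libraries and 5.395 CPM in the 1 batch 1 library of Ezh2-/- cells.

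Rnf2 ran the other way by batch. It averaged 252.5 CPM in batch 1 and 126 CPM in batch 2 of JAK2V617F libraries, and 162.5 and 115 CPM in controls. JAK2V617F libraries had 104, 137 and 282 CPM at the lowest, median and highest, against 136, 189, 115.5 and 115 CPM in controls. With batch in the fit, the Ezh2+/+ comparison gave a log2 change of 0.40 (SE 0.14, adjusted p 0.102), and the mean JAK2V617F effect was 0.06 with a 95% interval of -0.09 to 0.20. Over the 35 libraries, log2 CPM of Rnf2 and Ring1 had a Pearson correlation of -0.68, a description that shares batch between both genes.

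Phc2, whose product links PRC1 complexes, fell in the mean of the 3 comparisons by 0.41 on the log2 scale (SE 0.12, adjusted p 0.0106). JAK2V617F libraries had 15.3, 21.4 and 29.6 CPM at the lowest, median and highest, against 49.4, 37.9, 27.3 and 37.15 CPM in controls. Of the 6 JAK2V617F libraries 5 lay below every control, but the log2 change of -0.72 (SE 0.25) had an adjusted p of 0.0919. Without JAK2V617F batch 2 replicate 2, the highest of that group, the adjusted p was 0.0455. The Ezh2+/+ comparison of Phc2 was -1.17 in females alone (adjusted p 0.032) and -0.76 with no sex term (adjusted p 0.0384), against -1.26 in batch 1 (adjusted p 0.157) and -0.17 in batch 2 (adjusted p 0.935). In Ezh2+/- cells the levels were 22.8, 31.65 and 47.3 CPM with JAK2V617F, against 21.4, 30.5 and 45.4 CPM without it, a log2 change of -0.10 (SE 0.18). In Ezh2-/- cells the change was -0.42 (SE 0.24, adjusted p 0.359). The mean effect on Phc2 was -0.62 in batch 1 (adjusted p 0.206), -0.25 in batch 2 (adjusted p 0.305), -0.60 in females (adjusted p 0.0283) and -0.45 without the 2 libraries that went against a label (adjusted p 0.00705).

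The Ezh2 comparisons use libraries of the JAK2V617F comparisons again, so the results are not separate evidence. Loss of Ezh2 was tested against Ezh2+/+ cells with and without JAK2V617F. In the mean of both comparisons, Bmi1 was the 1 member called, and it rose by 0.89 on the log2 scale (SE 0.17, adjusted p 0.00708), or 1.85-fold. Of all genes 0.408% were called, 0.335% higher and 0.0736% lower. Markers of cell state were read in the same mean. All 7 granulocyte and monocyte markers had a negative log2 change (median -1.09), as did all 3 multipotent progenitor markers (median -0.41), none called. Among 10 LT-HSC markers 8 were positive, and Ly6a rose by 0.67 (SE 0.11, adjusted p 0.00155). Among 12 dividing-cell markers 5 were positive. The part of these shifts in the Bmi1 result was not tested. JAK2V617F Ezh2-/- libraries had a lowest, median and highest level of Bmi1 of 25.1, 38.65 and 56.8 CPM, against 10.7, 18.9 and 34.5 CPM in JAK2V617F libraries, and 4 of 6 lay above all of these. Without JAK2V617F, Ezh2-/- libraries had 59.6, 45.1, 34.45 and 38.9 CPM, against 29.8, 25.5, 30.35 and 24.35 CPM in controls. All 4 lay above every control. The test called 0.00669% of genes in that comparison, which is not the share of genes with such a gap, and that share was not computed.

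Neither comparison on its own passed for Bmi1 in the main edgeR fit. The log2 change was 0.79 (SE 0.23, adjusted p 0.157) with JAK2V617F, where 0.475% of genes were called (0.401% higher and 0.0736% lower), and 0.98 (SE 0.28, adjusted p 0.532) without it. DESeq2 gave adjusted p-values of 0.0479 and 0.0867. With no sex term, edgeR gave 0.90 (adjusted p 0.0425) with JAK2V617F. Within batches the mean effect was 1.12 in batch 1 (adjusted p 0.677), where Ezh2-/- had 1 library, and 0.75 in batch 2 (adjusted p 0.326). In females alone it was 0.96 (adjusted p 0.504), and without the 2 libraries that went against a label 0.88 (adjusted p 0.00365). In order of mean level, Bmi1 was highest in Ezh2-/- at 44.5 ± 10.9 CPM (SD, n = 4), then JAK2V617F Ezh2-/- at 40.4 ± 12.6 (n = 6), Ezh2+/- at 36.9 ± 23.02 (n = 7), control at 27.5 ± 3.01 (n = 4), JAK2V617F Ezh2+/- at 20.995 ± 9.17 (n = 8) and JAK2V617F at 19.9 ± 8.58 CPM (n = 6). Each pair of neighbours in this order differed by less than the larger of their SDs, and the order pools the batches. In batch 2 alone, Ezh2-/- averaged 39.5 CPM, JAK2V617F Ezh2-/- 30.3, control 27.35, Ezh2+/- 22.7, JAK2V617F 15.35 and JAK2V617F Ezh2+/- 14.7 CPM, so control lay above Ezh2+/- there. The Ezh2+/- mean also includes the 2 libraries that went against a label, at 83.27 and 39.14 CPM, while the other 5 lay between 14.3 and 45.25 CPM. The windows of Bmi1 and Cbx6 printed above both hold CACGTG, and whether these letters bear on the RNA of either gene was not tested.

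**Figure D3:**
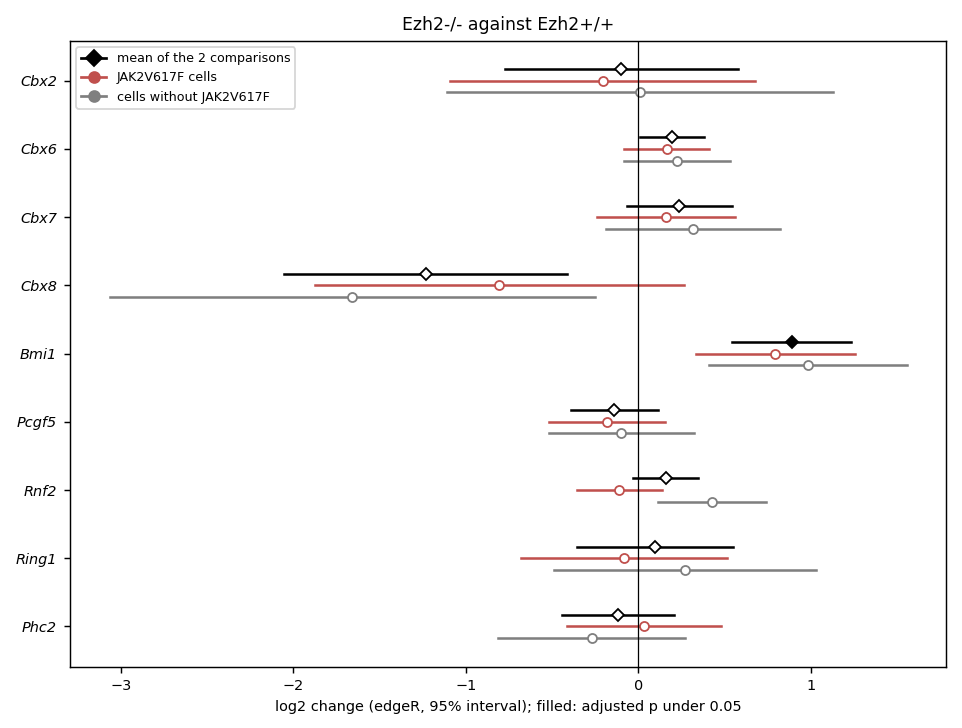
Log2 change of each PRC1 subunit gene in Ezh2-/- against Ezh2+/+ cells, with JAK2V617F, without it, and as the mean (diamonds), with 95% intervals from the edgeR fit. Filled symbols have an adjusted p under 0.05. The mean for Bmi1, 0.89, is the one filled symbol, and the mean for Cbx8, -1.23, is the lowest of the means.

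The other members did not pass the test for Ezh2 loss. Cbx8 had the lowest mean effect, with a value of -1.23 (95% interval -2.05 to -0.41, adjusted p 0.283). JAK2V617F Ezh2-/- libraries had 2.70, 4.81 and 6.28 CPM of Cbx8 at the lowest, median and highest, against 3.49, 10.2 and 13.3 CPM in JAK2V617F libraries. Ezh2-/- libraries had 7.65, 1.78, 5.61 and 0.783 CPM, against 6.57, 15.9, 12.7 and 7.44 CPM in controls. The lowest of these values, in Ezh2-/- batch 2 replicate 3, rests on 24 counts. The means for Cbx6 and Cbx7 were 0.19 (interval 0.01 to 0.38, adjusted p 0.595) and 0.24 (interval -0.06 to 0.54).

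Counts of members called were 0 in Ezh2-/- against control and 0 in JAK2V617F Ezh2-/- against JAK2V617F (edgeR). At an unadjusted p under 0.05 there were 3 and 1, beside 891 and 1066 of 14945 genes. DESeq2 called 0 and 1 members, beside 97 and 193 of 14769 genes. Ezh2 itself was not called in Ezh2-/- against control by either method, so 0 calls there do not show that members were unchanged. Loss of 1 Ezh2 allele was compared in the same way. No member was called in Ezh2+/- against control or in JAK2V617F Ezh2+/- against JAK2V617F, where 0% of all genes were called by edgeR. At an unadjusted p under 0.05 there were 2 members and 1 member, beside 772 and 578 genes. DESeq2 called 0 members in both, beside 64 and 44 genes. Among members, the lowest p in either comparison was for Phc2, 0.0133 (edgeR), with a log2 change of 0.52 (SE 0.20) in JAK2V617F Ezh2+/- against JAK2V617F.

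Whether Ezh2 loss acted differently with JAK2V617F was tested as the difference of the 2 log2 changes. No member passed (edgeR, 0.00669% of genes called), with 1 member at an unadjusted p under 0.05 and 0 called by DESeq2. That member was Rnf2, at -0.54 (95% interval -0.96 to -0.11, adjusted p 0.738). Over all genes, 809 of 14945 had an unadjusted p under 0.05, and DESeq2 called 92 of 14769. For Cbx7 the difference was -0.15 with an interval of -0.83 to 0.53, and for Bmi1 -0.19 with an interval of -0.96 to 0.59. The same intervals apply to the difference of the JAK2V617F effects between Ezh2-/- and Ezh2+/+ cells.

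Of 30 other PRC1 genes, 3 rose and 2 fell in the mean JAK2V617F effect, where 12.8% of all genes rose. Those that rose were Hdac1, a histone deacetylase, by 0.38 (SE 0.08, adjusted p 0.000286), L3mbtl2, a subunit of the variant complex with PCGF6, by 0.45 (SE 0.13, adjusted p 0.01), and Csnk2b, a casein kinase subunit, by 0.28 (SE 0.07, adjusted p 0.00269). Sfmbt2, an MBT-domain gene, fell by 1.04 (SE 0.29, adjusted p 0.00749), and Fbrs, of the AUTS2 family, fell by 0.42 (SE 0.11, adjusted p 0.00565). Their median was -0.01, as over all genes. None was called in the mean effect of Ezh2 loss by edgeR or DESeq2, with 0 at an unadjusted p under 0.05. Over all genes, 1168 of 14945 had such a p, and DESeq2 called 210 of 14769. In Ezh2-/- cells, 1 of the 30 was called by edgeR, where 4.84% of all genes were. It was Bcor, of the variant complex with PCGF1, which fell with JAK2V617F by 0.63 (SE 0.19, adjusted p 0.0431). In Ezh2+/- cells 2 rose, Hdac1 and L3mbtl2, where 9.05% of all genes were called. In Ezh2+/+ cells 0 were called, where 4.22% of all genes were, and Bcor gave 0.09 (SE 0.19, adjusted p 0.883).

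**Figure D4:**
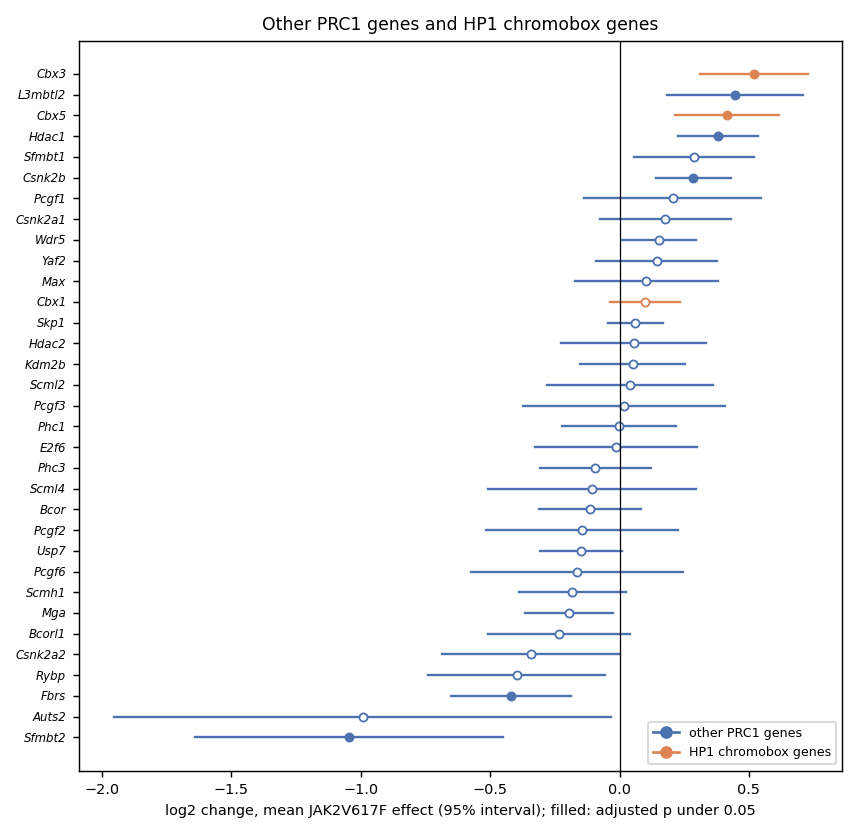
Mean JAK2V617F effect (log2 change with 95% interval) on 30 other PRC1 genes and 3 HP1 chromobox genes, ordered by size. Filled symbols have an adjusted p under 0.05. Sfmbt2 at -1.04 is lowest, and the HP1 gene Cbx3 at 0.52 is highest.

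Chromobox genes of the HP1 family, which read another histone H3 mark, were measured beside the polycomb ones. Of 3, Cbx3 rose by 0.52 (SE 0.10, adjusted p 0.000229) and Cbx5 by 0.42 (SE 0.10, adjusted p 0.0017) in the mean JAK2V617F effect, while Cbx1 gave 0.10 (SE 0.07, adjusted p 0.301). In Ezh2+/+ cells Cbx3 rose by 0.72 (SE 0.20, adjusted p 0.0341). The 4 enzymes that remove ubiquitin from H2A (Bap1, Usp16, Usp21 and Mysm1) had mean effects between -0.15 and 0.14, none called by edgeR or DESeq2 and 0 at an unadjusted p under 0.05. Over all genes, 5315 of 14945 had such a p, and DESeq2 called 4087 of 14769.

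In PRC2, whose mark the CBX proteins read, Ezh1 fell by 0.63 (SE 0.09, adjusted p 2.21e-06) in the mean JAK2V617F effect, while Rbbp4 rose by 0.34 (SE 0.06, adjusted p 4.53e-05) and Ezh2 itself by 0.46 (SE 0.12, adjusted p 0.00414). For Ezh2 that mean includes Ezh2+/- and Ezh2-/- cells, where the gene is not intact. In Ezh2+/+ cells Ezh2 gave 0.76 (SE 0.24, adjusted p 0.0673), not called by edgeR but called by DESeq2. Eed, Suz12 and Rbbp7 gave 0.18, 0.04 and 0.06 and were not called. Ezh2 RNA fell by 1.498 (SE 0.21, adjusted p 8.22e-05) in JAK2V617F Ezh2-/- against JAK2V617F cells. Without JAK2V617F it averaged 22.9 CPM in Ezh2-/- libraries and 45.1 CPM in controls. In that comparison 0 of the 6 PRC2 core genes, Ezh2 included, were called by edgeR or DESeq2.

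Among genes known as PRC1 targets in blood cells, Cdkn2a, the cell-cycle inhibitor locus repressed by Bmi1, had counts in 2 of 35 libraries. These were 13 counts in Ezh2-/- batch 1 replicate 1 and 1 count in Ezh2+/- batch 1 replicate 3. Cdkn2b had 14 counts in JAK2V617F Ezh2-/- batch 2 replicate 3 and 1 count in JAK2V617F batch 2 replicate 1. In the libraries at 0, a floor of 3 counts allows between 0.0627 and 0.214 CPM, counting error only. Hoxa9, a homeobox gene of blood stem cells, fell by 0.68 (SE 0.08, adjusted p 6.37e-08) in the mean JAK2V617F effect. Pax5 and Hoxc13 had counts in 1 library each.

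The genes whose log2 CPM most resembled each member over the 35 libraries, among 9587 candidates, were named by Pearson correlation, with libraries sharing genotype, batch and depth. For Cbx6 they were Eng (0.866) and Selenom (0.855), for Cbx7 Sult1a1 and Tinagl1 (both 0.834), and for Bmi1 Tgfbr3 (0.838) and Peak1 (0.819). For Rnf2 they were Coa5 (0.853) and Tmx3 (0.827), for Ring1 Selenbp1 (0.827) and Nucb1 (0.799), and for Phc2 Eid1 (0.718) and Ubp1 (0.706). Cbx8 had Ercc1 (0.717), Pcgf5 Abt1 (0.647) and Gng7 (0.551), and Cbx2 Nup88 (0.633) and Psme3ip1 (0.632). Among the members themselves the highest values were Bmi1 with Rnf2 at 0.631 and Cbx6 with Cbx7 at 0.582.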

How the data were processed

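RNA-seq counts of 35 LT-HSC libraries were analysed. The deposited values are raw counts per Entrez gene, made by the authors from SMARTer low-input libraries, per the labels' protocols. STAR and build mm9 are named in the submitters' processing notes, while the counter, its gene models and its strand setting were not given in the sources used here. The separately counted part of Ezh2, at most 0.000935% of a library, was left out of library sizes and tests. Symbols, matched for 19075 of 19138 genes, and promoter windows came from RefSeq tables of another build.

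The quasi-likelihood test of edgeR 4.0.16 (R 4.3.3) was fitted robustly to all 35 libraries with group, batch and sex, TMM factors of 0.937 to 1.062, and filterByExpr by group, which removed 4193 genes. There were 27 residual degrees of freedom, and the common coefficient of variation between libraries was 0.554. Calls used a Benjamini-Hochberg adjusted p under 0.05 over 14945 genes. CPM used TMM library sizes. The labels gave each library's genotype, batch, sex and number but no animal, so p-values measure the spread between libraries, which may be technical. The fit was run on simulated counts that held no batch or sex differences, so that run cannot show how the fit handles them. Its outcome is not given here. Alternatives were DESeq2 1.42.0 (size factors and Wald test), no low-count filter, no sex term, a replicate block, the compared groups only, each batch, females, 2 libraries left out, and each library left out.

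The members, gene lists and tests were chosen with earlier results of these data known. Named genes were all members, called genes of the lists (up to 4 by smallest adjusted p for each list and comparison, of which the text gives a part) and, for each member, the 2 genes most correlated with it. L3mbtl2 in the mean effect, Cd34, the overlapping genes and uncalled list genes were chosen after their values were seen. A planned share of each chromobox gene, 1 gene of the PRC1 list and 1 correlated gene are not reported here.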

Additional observations from a re-analysis of the deposited data

Results flagged for a closer look

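In 54 checks, each of 1 member in 1 group of 4 to 8 libraries, 4 had a lowest library far from the others by Dixon's criterion at 95%. In groups of a single population chance gives this in about 1 of 20, but each group here holds libraries of both batches, and Cbx6 and Ring1 had lower means in batch 1 than in batch 2 in every group, so that rate does not apply as it stands. Cbx6 in JAK2V617F batch 1 replicate 1 was at 97.1 CPM, against 151 to 184 CPM in the rest of that group. Cbx8 in JAK2V617F batch 1 replicate 2 was at 3.49 CPM, against 9.0 to 13.3 CPM. Cbx2 in JAK2V617F Ezh2+/- batch 1 replicate 3 was at 1.71 CPM, against 6.49 to 14.8 CPM. Ring1 in JAK2V617F Ezh2+/- batch 1 replicate 2 was at 4.75 CPM, against 9.9 to 17.4 CPM. All 4 libraries were of batch 1.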

How the results depend on the processing

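No called log2 change of a member changed sign under any alternative. Of 963 results under settings other than leaving out 1 library, 858 kept their direction and call or stayed within their spread, 37 lost a call, 5 gained one and 63 moved. The causes were not tested, beyond the smaller number of libraries in the subsets. The mean JAK2V617F effect called 5 members, where 3774 of 14945 genes were called. Batch 2 alone called 4 members and 2150 of 15502 genes. Leaving out each library in turn called 5 to 5 members and 3346 to 3861 genes. Batch 1 alone and females alone each held 1 Ezh2-/- library, so their effects are given by gene above without a count. The mean effect of Ezh2 loss called 1 member and 61 genes, with 0 members and 21 of 15502 genes in batch 2 alone. Without 1 library it called 1 to 1 members and 37 to 66 genes. JAK2V617F against control called 2 members, with 0 in the compared groups only, 0 in batch 1, 0 in batch 2 and 1 in females, and 0 to 3 without 1 library. The 1 in females was Phc2, and Cbx6 and Cbx7 were both lost there (adjusted p 0.169 and 0.133). Among all genes this comparison called 631, with 470 of 13572 in the compared groups only. It called 83 of 15545 in batch 1, 38 of 15502 in batch 2 and 411 of 16031 in females. JAK2V617F Ezh2-/- against Ezh2-/- called 2 members and 723 genes. The compared groups only gave 0 members and 252 of 13848 genes, and batch 2 gave 1 member and 373 of 15502 genes. Cbx7 was the member lost in batch 2 (adjusted p 0.0531). Without 1 library the count was 2 to 2, but the members could change. Without Ezh2-/- batch 1 replicate 1, Cbx6 lost its call (adjusted p 0.0504) and Ring1 gained one (adjusted p 0.0417). JAK2V617F Ezh2+/- against Ezh2+/- called 3 members, with 0 in batch 1, 1 in females and 1 without the 2 libraries that went against a label, and 2 to 3 without 1 library. Its gene counts were 1353 in the main fit, 176 of 15545 in batch 1, 349 of 16031 in females and 921 of 14912 without those 2. JAK2V617F Ezh2-/- against control called 1 member, with 0 with no low-count filter, 2 by DESeq2, 0 in the compared groups only, 0 in batch 1 and 0 in batch 2, and 0 to 1 without 1 library. Its gene counts were 819 in the main fit, 722 of 19097 with no low-count filter and 1211 of 14769 by DESeq2. They were 664 of 13675 in the compared groups only, 118 of 15545 in batch 1 and 111 of 15502 in batch 2. JAK2V617F Ezh2-/- against JAK2V617F called 0 members, with 1 by DESeq2 and 1 with no sex term. Its gene counts were 71 in the main fit, 193 of 14769 by DESeq2 and 80 with no sex term. The other comparisons called 0 members throughout, 0 to 0 without 1 library.

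The replicate block changed no count of called members, and the mean effect of Ezh2 loss on Bmi1 was 0.84 with it (adjusted p 0.0422). Over 69 same-numbered pairs the median correlation of deviations was -0.035, and 9 of 34 libraries correlated best with their own number, so the numbers were not taken to pair libraries. Depth limits Cbx8 most, with 16 counts in its lowest library.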
